A study of Mus musculus with 378 samples.

Results

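The 35 genes described here work in DNA replication and cell division and were chosen by name from the 23420 genes of the table. They comprise 10 replication genes (Mcm2, Mcm3, Mcm4, Mcm5, Mcm6, Mcm7, Pcna, Rrm1, Rrm2 and Tyms), 22 mitotic genes and 3 genes outside both classes (Tk1, Stmn1 and Hmgb2). Smart-seq2, which amplifies whole transcripts from 1 cell, was applied to T cells that infiltrated B16F10 melanomas grown in C57BL/6 mice. The mice were either wild type (WT) or labelled as lacking Il27ra (KO), which encodes a receptor chain for the cytokine IL-27. The titles name single cells and 1 population library for each of 4 groups: CD8 and CD4 cells of WT mice, and the same of KO mice. Age, sex and the number of mice were not given in the sources used here, and neither was the kind of deletion.

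A cell that divides copies its DNA in S phase and parts the copies in mitosis. E2F factors switch on the genes of replication. Many mitotic genes are held silent until late in the cycle by complexes that bind promoter elements called CHR, with the letters TTTGAA. Promoters of mitotic genes often also hold CCAAT boxes. T cells divide after antigen contact, whereas naive and resting memory cells carry little RNA of either class. Of the genes named here, the Mcm proteins form the helicase that opens DNA, Pcna is the sliding clamp of DNA polymerases, and Rrm1, Rrm2 and Tyms make DNA precursors.

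The question was whether replication and mitotic genes were present in the same cells, and how many such cells each group held. Single cells with at least 1000 genes above 0 were kept, which left 67 of 94 WT CD8 and 74 of 92 KO CD8 libraries, and 79 of 94 WT CD4 and 78 of 94 KO CD4 libraries. Values are FPKM, fragment numbers set against transcript length and library total and scaled across libraries. Median genes per cell were 2919, 2797, 2307 and 2650.5 in that order of groups, and medians of estimated reads per cell were 393975, 418863, 228051 and 456826. In single cells Il27ra was found no less often under the KO label, above 0 in 26 of 67 WT and 39 of 74 KO CD8 cells, and in 38 of 79 WT and 41 of 78 KO CD4 cells. In the population libraries its log2(FPKM + 1) was lower in KO for CD4 (8.01 for WT, 6.59 for KO) and higher for CD8 (5.60 and 6.52). RNA from undeleted exons could still be counted and no source used here says which exons were deleted, so every direction below is between libraries labelled KO and WT. Each group is 1 sample and cells are not replicates, so no test between groups was possible, and the intervals given are exact Clopper-Pearson 95% intervals for counting error only. WT CD4 titles hold p3 where the others hold p2, and that difference and the group cannot be told apart. The protocol speaks of CD8+ T cells alone, so the CD4 groups are known from titles and lineage genes. B2m was at 0 in 8 WT CD8 and 6 WT CD4 but 0 KO kept cells, and all of Cd3d, Cd3e and Cd3g were at 0 in 8, 3, 3 and 1 cells in the order above.

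Promoter windows show one way in which the members of both classes differ that their choice did not use. The RefSeq table of the GRCm38.p6 build holds a window of 300 bases, from 250 before to 50 after the start site, for 30 of the 35 members. It has none for Mcm4, Ccna2, Aurkb, Tpx2 and Stmn1. Windows were searched on both strands for TTTGAA, for CCAAT, and for the E2F-type letters TTTCCCGC and TTTGGCGC. The windows of 5 members are shown, each as the 200 bases before the start site on the gene's own strand, with matches on either strand in capitals. On the opposite strand CCAAT reads ATTGG. Likewise TTTGAA reads TTCAAA there, and for TTTGGCGC the letters are GCGCCAAA.
Mcm5 and Mcm6, which encode helicase subunits, hold TTTGGCGC, at chr8:75109309-75109508 on the plus strand and chr1:128359706-128359905 on the minus strand.
Mcm5: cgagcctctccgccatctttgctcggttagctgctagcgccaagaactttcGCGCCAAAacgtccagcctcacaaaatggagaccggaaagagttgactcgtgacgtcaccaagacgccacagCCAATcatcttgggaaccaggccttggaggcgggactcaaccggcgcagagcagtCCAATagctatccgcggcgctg
Mcm6: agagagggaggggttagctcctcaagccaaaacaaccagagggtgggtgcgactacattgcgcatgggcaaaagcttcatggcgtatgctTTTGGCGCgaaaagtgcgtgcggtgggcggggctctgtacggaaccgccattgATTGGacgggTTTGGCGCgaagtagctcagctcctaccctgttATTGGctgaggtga
Mki67, Top2a and Ccnb2 are mitotic genes with TTTGAA and several CCAAT, at chr7:135716380-135716579, chr11:99024190-99024389 and chr9:70421555-70421754, all on the minus strand.
Mki67: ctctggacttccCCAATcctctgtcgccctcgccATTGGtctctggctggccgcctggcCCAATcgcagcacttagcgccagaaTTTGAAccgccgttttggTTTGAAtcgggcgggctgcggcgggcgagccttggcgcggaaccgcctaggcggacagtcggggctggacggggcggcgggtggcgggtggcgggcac
Top2a: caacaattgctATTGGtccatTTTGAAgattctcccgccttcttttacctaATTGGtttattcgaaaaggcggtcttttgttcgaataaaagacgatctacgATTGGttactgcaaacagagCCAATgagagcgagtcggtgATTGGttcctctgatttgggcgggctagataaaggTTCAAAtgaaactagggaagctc
Ccnb2: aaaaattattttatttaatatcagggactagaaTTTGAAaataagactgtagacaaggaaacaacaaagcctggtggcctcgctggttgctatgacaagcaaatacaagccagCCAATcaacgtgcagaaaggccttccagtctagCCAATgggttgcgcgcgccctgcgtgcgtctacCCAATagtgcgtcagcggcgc

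TTTGAA was found in 14 of 19 mitotic windows (73.7%) and in 1 of 9 replication windows (Mcm2), against 17.6% of the 16375 windows of the table's genes. CCAAT was found in 17 of 19 mitotic and 8 of 9 replication windows, against 42.2% of all windows. All 14 mitotic windows with TTTGAA also held CCAAT, a pair seen in 7.19% of all windows. An E2F-type sequence was found in 4 of 9 replication windows (Mcm3, Mcm5, Mcm6 and Mcm7) and in 0 of 19 mitotic windows, against 2.36% of all windows. Among genes of the same pathways that are not members, TTTGAA was found in 29 of 44 further mitotic and 4 of 30 further replication windows, and an E2F-type sequence in 5 of 44 and 9 of 30. These matches describe letters in a window and do not show that a factor was bound. TTTGAA and the E2F-type sequences were thus divided between the classes, while CCAAT was common in both.

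Most cells carried a few members at low level and a small set carried nearly all of them. At least 3 of the 22 mitotic genes were above 0 in 44 of 67 WT CD8 cells (65.7%, 53.1 to 76.8), 37 of 74 KO CD8 cells (interval 38.1 to 61.9%), 39 of 79 WT CD4 cells (49.4%, 37.9 to 60.9) and 34 of 78 KO CD4 cells (43.6%, 32.4 to 55.3). At least 3 of the 10 replication genes were above 0 in 40 WT (59.7%) and 48 KO (64.9%) CD8 cells, and in 39 WT (49.4%) and 45 KO (57.7%) CD4 cells. Both conditions were met by 27 WT (40.3%) and 25 KO (33.8%) CD8 cells, and by 26 WT (32.9%) and 24 KO (30.8%) CD4 cells. The intervals overlapped between groups, though for mitotic genes those of WT CD8 (53.1 to 76.8) and KO CD4 cells (32.4 to 55.3) did so only narrowly. Much of what these shares counted was low-level signal.

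Low-level signal was also looked at in the 76 libraries with under 1000 genes above 0. Whether each of these held a cell was not tested. Tyms was above 0 there in 44.7%, Birc5 in 26.3%, Ube2c in 17.1%, and Tpx2 and Prc1 in 9.21% each, while 16 members were at 0 in all 76, which allows a share of up to 3.95%, taken as 3 counts of 76 (the exact interval ends at 4.74%). Without those 5 genes, at least 3 mitotic genes were found in 46.3% of WT and 18.9% of KO CD8 cells, and in 11.4% of WT and 15.4% of KO CD4 cells. With a floor of 10 FPKM in place of 0, the shares with at least 3 mitotic genes were 35.8%, 9.46%, 8.86% and 7.69%, and those with at least 3 of both classes were 26.9%, 8.11%, 2.53% and 6.41%. Thinning each cell to 100000 estimated reads, which left out 14, 1, 10 and 1 cells, gave 52.8%, 17.8%, 17.4% and 15.6% for mitotic genes and 58.5%, 38.4%, 39.1% and 27.3% for replication genes. Unthinned, the same cells gave 60.4%, 50.7%, 44.9% and 44.2% for mitotic genes and 71.7%, 65.8%, 55.1% and 58.4% for replication genes. Under each of these 3 settings the mitotic share was highest in WT CD8 cells. The share with at least 3 replication genes depended on the setting. Above 0 FPKM over all kept cells it was highest in KO CD8 cells, with or without those 5 genes. Above 10 FPKM, and over the cells deep enough to be thinned, it was highest in WT CD8 cells.

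A small set of cells had many members at once. At least 10 of the 22 mitotic genes were above 0 in 14 of 67 WT CD8 cells (20.9%, 11.9 to 32.6), 4 of 74 KO CD8 cells (5.41%, 1.49 to 13.3), 1 of 79 WT CD4 cells (1.27%, 0.0320 to 6.85) and 2 of 78 KO CD4 cells (2.56%, 0.312 to 8.96). At least 8 of the 10 replication genes were above 0 in 16 WT (23.9%, 14.3 to 35.9) and 5 KO (6.76%, 2.23 to 15.1) CD8 cells and in 3 WT (3.80%, 0.790 to 10.7) and 4 KO (5.13%, 1.41 to 12.6) CD4 cells. WT CD8 cells held the most of both, and for the mitotic genes their interval overlapped with that of KO CD8 cells but with neither CD4 interval. Both limits were chosen after the distributions were seen. Just outside the mitotic limit, with 7 to 9 genes, lay 7 WT and 2 KO CD8 cells and 0 WT and 1 KO CD4 cells, and just inside it, with 10 to 12, lay 1, 1, 1 and 0. Thinned to 100000 estimated reads, the counts with at least 10 mitotic genes were 13 of 53, 4 of 73, 1 of 69 and 2 of 77.

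**Figure D1:**
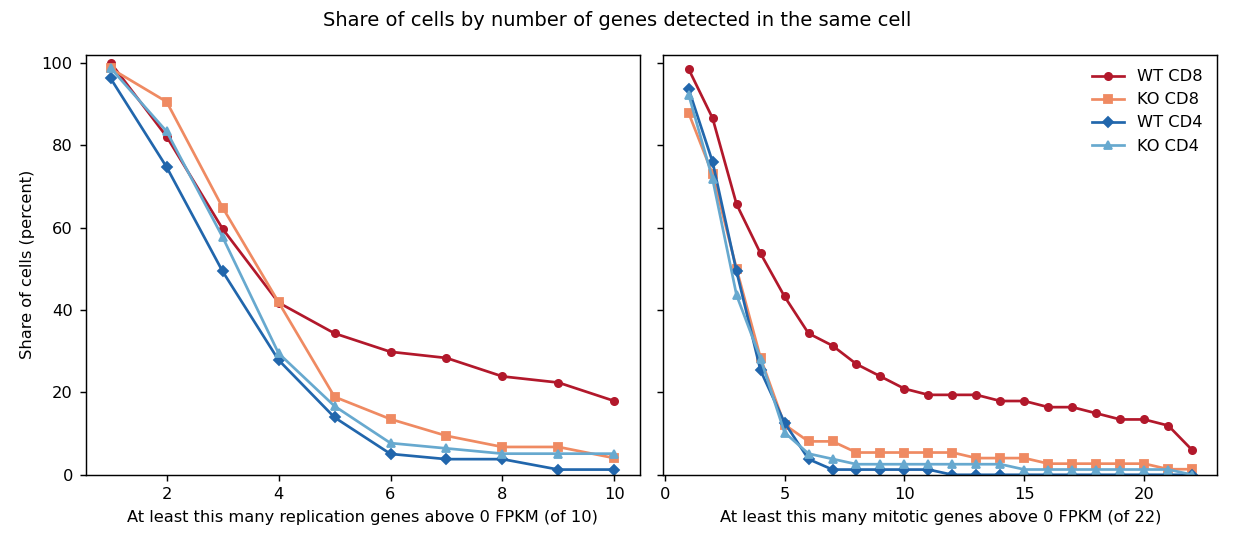
Share of kept cells (percent, vertical axis) with at least a given number of replication genes (left, of 10) or mitotic genes (right, of 22) above 0 FPKM in the same cell, with a line for each group. The WT CD8 line lies above the others from 5 replication genes on and at each number of mitotic genes, with 20.9% at 10 mitotic genes.

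Replication and mitotic genes were mostly high in the same cells. Of the 21 cells with at least 10 mitotic genes, 19 also had at least 8 replication genes, among them 13 WT and 3 KO CD8 cells and 1 WT and 2 KO CD4 cells, and 14 had all 10. Only 2 cells had the mitotic set without the replication set, a WT CD8 cell with 13 mitotic and 2 replication genes and a KO CD8 cell with 12 and 6. Another 9 cells had the replication set alone, 3 WT CD8 and 2 in each other group, and the other kept cells had neither. All 22 mitotic genes were above 0 in 4 WT CD8 cells and 1 KO CD8 cell, and all 35 members in 2 and 1. In the plot of both counts per cell they lie in the upper right corner, with a few cells on either side of each limit.

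**Figure D2:**
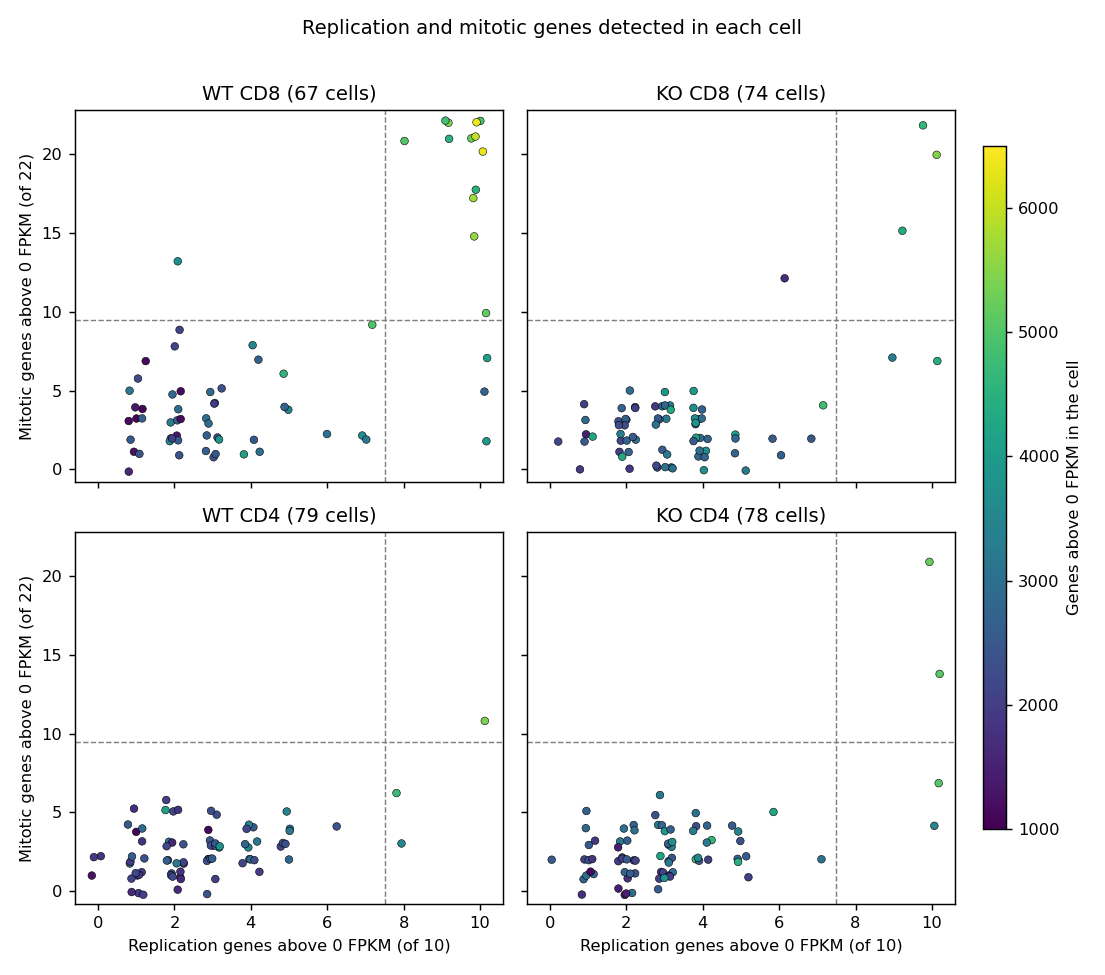
Replication genes (horizontal axis, of 10) against mitotic genes (vertical axis, of 22) above 0 FPKM in each kept cell, 1 panel per group, with small random shifts so that cells do not hide each other and colour for the genes detected in the cell. Dashed lines mark 8 replication and 10 mitotic genes: 13 WT and 3 KO CD8 cells and 1 WT and 2 KO CD4 cells lie beyond both.

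The 9 cells with the replication set alone differed from the 21 in which mitotic genes were present, although the counts that define them fix part of this. Top2a, the topoisomerase that untangles DNA, was above 0 in 8 of the 9 and Cdk1, the kinase that drives mitotic entry, in 5. Ccnb1, Bub1, Bub1b, Cenpe, Cdc20 and Plk1, 6 genes that act from late G2 to chromosome separation, were above 0 in none of the 9. In the 21 cells, Ccna2 and Birc5 were above 0 in all 21 and Mki67 in 20, while Aurka and Cenpe were found in 13 and Plk1 in 12. In the cells with neither set, 11 of the 22 mitotic genes were above 0 in under 5% of cells, with Bub1 in 1 cell, Aurka, Bub1b and Plk1 in 3 each and Nusap1 in 4. Replication genes were also found outside these cells: 9 of the 10 were above 0 in over 10% of the cells with neither set, Pcna in 42.9% and Mcm6 in 36.6%, and Rrm2 was the exception with 4.10%.

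A small number of WT CD8 cells held most of the mitotic RNA of that group. The 14 cells with at least 10 mitotic genes were 20.9% of WT CD8 cells and carried a median over the 22 genes of 91.5% of the summed FPKM, from 58.6% for Mki67 up to Bub1, which was at 0 in the other WT CD8 cells. For the 10 replication genes the median was 60.01%, from 46.2% for Mcm4 and Mcm6 to 82.8% for Rrm2. For Hmgb2, Stmn1 and Tk1 it was 68.1%, 83.2% and 84.99%. The mitotic figure follows in part from how the 14 cells were defined, while the replication figure does not use the same genes.

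Those cells also had more genes detected. In WT CD8 cells the 14 had 3676 to 6363 genes (median 5206) and a median of 858355 estimated reads, against medians of 2643.5 genes and 258391 reads in the 50 cells with neither set. In KO CD8 cells the medians were 4511.5 genes in the 4 cells and 2779.5 in the 68 with neither set. Among cells with at least 4000 genes, 13 of 17 WT CD8 (76.5%, 50.1 to 93.2), 3 of 10 KO CD8 (6.67 to 65.2%), and of CD4 cells 1 of 3 WT and 2 of 8 KO had at least 10 mitotic genes. The part of genes detected in the difference between groups was not tested. Of the lineage genes in cells with at least 10 mitotic genes, Cd8a and Cd8b1 were above 0 and Cd4 was at 0 in all 14 WT CD8 and all 4 KO CD8 cells, while Cd4 was above 0 and Cd8a at 0 in all 3 CD4 cells. Cd8b1 was also above 0 in 1 of the 2 KO CD4 cells, at 343.6 FPKM. Cd40lg and Zbtb7b, which mark CD4 lineage cells, were at 0 in the WT CD4 cell and above 0 in 1 each of the 2 KO CD4 and 4 KO CD8 cells, and Zbtb7b in 1 WT CD8 cell.

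Some cells with at least 10 mitotic genes had markers of other cell types. At least 3 of 4 class II genes were above 0 in 1 of 14 WT CD8 and 1 of 4 KO CD8 cells among them. The same held for 1 of the 2 KO CD4 cells. At least 3 of 8 macrophage and monocyte markers were above 0 in 1 of the 4 KO CD8 cells. Melanoma markers were present as well, of which Tyr was above 0 at low level in nearly all WT CD8, KO CD8 and WT CD4 cells. Of those with under 10 mitotic genes, it was above 0 in 52 of 53, 67 of 70 and 75 of 78. In KO CD4 cells at least 1 of the 9 melanoma markers was above 0 in 74 of 78. At least 3 of the 9 markers were above 0 in 3 of 67 and 5 of 79 cells of the WT CD8 and CD4 groups and in 0 of 74 and 1 of 78 of the KO groups, among them 2 of the 14 WT CD8 cells with at least 10 mitotic genes and the only such WT CD4 cell. Without cells holding at least 3 markers, at least 10 mitotic genes were found in 12 of 64 WT CD8 cells (18.8%, 10.1 to 30.5), 4 of 74 KO CD8 cells, 0 of 74 WT CD4 cells and 2 of 77 KO CD4 cells, and the median KO minus WT difference in CD8 cells was -0.98 for replication and -1.10 for mitotic genes.

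Over all kept cells the lowest value was 0 in every group for all 35 members, and 30 members also had a median of 0 in every group. The groups overlapped for each gene and differed in the upper tail and in the share of cells above a floor. On the scale of log2(FPKM + 1), WT CD8 cells had the highest mean for 34 of the 35 members, the exception being Pcna, highest in KO CD4 cells. The share of cells above 10 FPKM was highest in WT CD8 cells for 33 members, with Pcna and Racgap1 as exceptions.

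**Figure D3:**
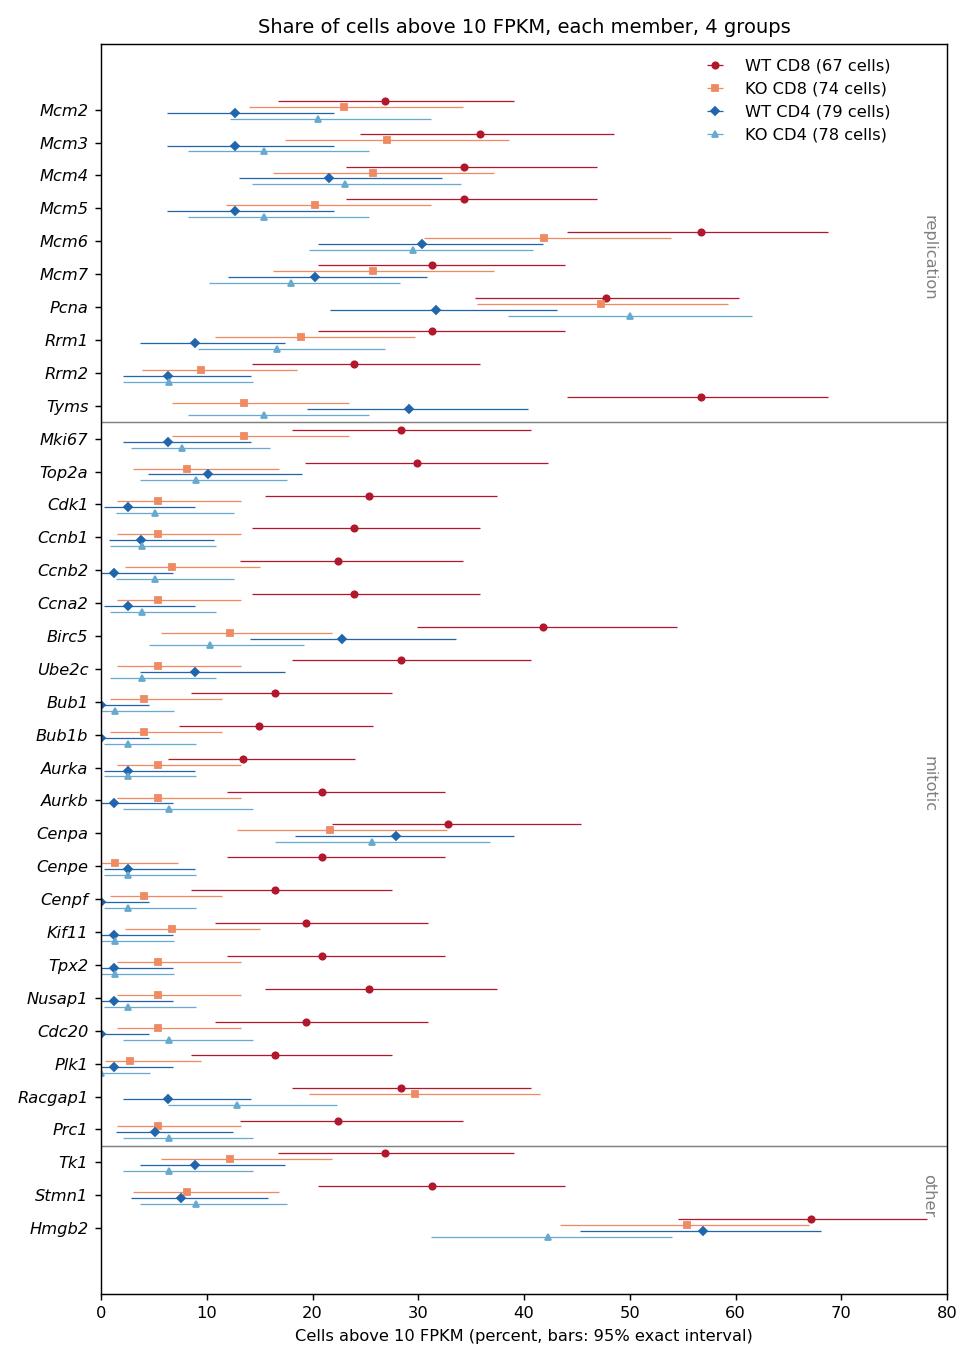
Share of kept cells above 10 FPKM (percent, horizontal axis) for each of the 35 members and 4 groups, with exact 95% intervals as bars. WT CD8 cells lie highest for 33 members, and Pcna and Racgap1 are the exceptions.

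Among the replication genes, Mcm6 was the most often high of the helicase subunits. It was at 0 to 2423 FPKM in WT CD8 cells (median 42.5), 0 to 1664 in KO CD8, 0 to 1815 in WT CD4 and 0 to 2546 in KO CD4 cells (medians 0). It was above 10 FPKM in 38 WT (56.7%) and 31 KO (41.9%) CD8 cells and in 24 WT (30.4%) and 23 KO (29.5%) CD4 cells. The other 5 subunits were above 10 FPKM in 18 to 24 WT CD8, 15 to 20 KO CD8, 10 to 17 WT CD4 and 12 to 18 KO CD4 cells. The helicase genes were thus spread through many cells of every group, with the highest counts in WT CD8 cells.

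Pcna did not follow the rest. Its median was 0 FPKM in both WT groups, 8.11 in KO CD8 cells and 18.5 in KO CD4 cells, and its highest values were 1656 and 1719 in WT and KO CD8 and 1432 and 3052 in the CD4 groups. It was above 10 FPKM in 32 WT CD8 (47.8%), 35 KO CD8 (47.3%), 25 WT CD4 (31.6%) and 39 of 78 KO CD4 cells. Rrm2, the regulated subunit of ribonucleotide reductase, was rarer, above 10 FPKM in 16 WT and 7 KO CD8 cells and in 5 WT and 5 KO CD4 cells, and Rrm1 in 21, 14, 7 and 13. Tyms was above 0 in 65 WT and 66 KO CD8 cells and in 66 WT and 70 KO CD4 cells, with medians of 13.1, 3.68, 4.42 and 3.74 FPKM. It was also above 0 in 44.7% of the 76 libraries with under 1000 genes above 0, and what its values near 0 stand for was not tested. Above 10 FPKM it was found in 38 WT and 10 KO CD8 cells and in 23 WT and 12 KO CD4 cells, beside 12 of those 76 libraries.

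Among the mitotic genes, Mki67, which encodes the Ki-67 antigen of cycling cells, was above 10 FPKM in 19 WT (28.4%) and 10 KO (13.5%) CD8 cells and in 5 WT (6.33%) and 6 KO (7.69%) CD4 cells. Its medians were 0 in each group and its highest values were 444.8, 380.2, 152.5 and 232.6 FPKM. Top2a was above 10 FPKM in 20, 6, 8 and 7 cells of the same groups, with highest values of 1122, 658, 236.02 and 364. Among cells above 0, the median in WT and KO CD8 cells was 60.02 and 19.8 FPKM for Mki67 and 125.9 and 68.5 for Top2a. Fewer KO CD8 cells were thus above 10 FPKM, and those above 0 had the lower median.

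Cdk1 and the cyclins that activate it were likewise above 10 FPKM in more WT CD8 cells than cells of any other group. Cdk1 was above 10 FPKM in 17 WT and 4 KO CD8 cells and in 2 WT and 4 KO CD4 cells, Ccnb1 in 16, 4, 3 and 3, Ccnb2 in 15, 5, 1 and 4, and Ccna2 in 16, 4, 2 and 3. The chromosomal passenger genes Birc5 and Aurkb were above 10 FPKM in 28, 9, 18 and 8 cells and in 14, 4, 1 and 5 cells. Birc5 was also above 10 FPKM in 14 of the 76 libraries with under 1000 genes above 0. The high Birc5 count of WT CD4 cells was not matched by its partner Aurkb.

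The spindle checkpoint genes and the mitotic kinases were found in few cells outside WT CD8. Bub1, a checkpoint kinase, was above 10 FPKM in 11 WT and 3 KO CD8 cells and in 0 WT and 1 KO CD4 cells, and Bub1b, its relative, in 10, 3, 0 and 2. Cdc20, the activator that the checkpoint restrains, was found in 13, 4, 0 and 5, and Ube2c, the ubiquitin carrier of that complex, in 19, 4, 7 and 3. The mitotic kinases Plk1 and Aurka were found in 11, 2, 1 and 0 cells and in 9, 4, 2 and 2 cells. Tpx2, which activates Aurka, was found in 14, 4, 1 and 1. A count of 0 of 79 WT CD4 cells allows a share of up to 3.80%, taken as 3 counts of 79 (the exact interval ends at 4.56%), so absence from that group was not shown.

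The kinetochore and spindle genes divided into rare and widespread members. Cenpe and Cenpf, which act at kinetochores, were above 10 FPKM in 14, 1, 2 and 2 cells and in 11, 3, 0 and 2 cells, in the order of groups used above. Cenpa, the centromeric histone, was found in 22, 16, 22 and 20 cells and so hardly separated the groups. Kif11 and Nusap1, a spindle motor and a microtubule binding protein, were found in 13, 5, 1 and 1 and in 17, 4, 1 and 2 cells. Of the cytokinesis genes, Prc1 was found in 15, 4, 4 and 5 cells and Racgap1 in 19, 22, 5 and 10. Racgap1 alone among the 22 mitotic genes was above 10 FPKM in more KO CD8 than WT CD8 cells, and it was above 0 in 27 KO CD8 cells against 19 WT CD8 cells.

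Of the 3 other genes, Stmn1, which encodes a microtubule destabiliser, was above 10 FPKM in 21 WT and 6 KO CD8 cells and in 6 WT and 7 KO CD4 cells. Tk1, the thymidine kinase of cycling cells, was found in 18, 9, 7 and 5. Hmgb2, a chromatin protein, had medians of 88.6, 22.2, 18.3 and 0 FPKM and was above 10 FPKM in 45, 41, 45 and 33 cells. Hmgb2 was the member found most widely outside the cells with many mitotic genes, apart from Tyms.

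For CD8 cells labelled KO against WT, all 35 members had a lower mean log2(FPKM + 1), and 26 were lower by at least 1, where 4.16% of all 7927 genes above 0 in at least 10% of cells were lower by as much. Of the members, 26 of 35 passed that filter (10 of 10 replication, 13 of 22 mitotic and 3 of 3 others), and the counts here are over all 35. The median difference was -1.11 for the replication genes, -1.22 for the mitotic genes and -1.81 for the 3 others, beside -0.06 over all genes. At least 1 lower were 6 of 10 replication and 17 of 22 mitotic genes. Every member was thus on the same side of 0, with Pcna and Racgap1 nearest to it. The counts depended on the setting, with 1 and 4 at a pseudocount of 10 and 1 and 6 over every library, although all 26 stayed below 0 under each of 10 alternatives. Without the 5 WT and 12 KO CD8 cells holding at least 3 markers of macrophages, dendritic cells or class II, the medians were -0.68 and -1.17.

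Single members spanned a wide range. Stmn1 had mean log2 values of 3.07 ± 4.61 (SD over 67 WT CD8 cells) and 0.92 ± 3.01 (SD over 74 KO CD8 cells), a difference of -2.15. Ube2c differed by -1.99, Top2a by -1.89, Hmgb2 by -1.81 and Birc5 by -1.74. Among replication genes Tyms differed by -1.65, Mcm6 by -1.46 and Rrm2 by -1.44. At the small end were Racgap1 at -0.09, from 2.55 ± 4.13 in WT to 2.45 ± 3.68 in KO, and Pcna at -0.05, from 3.81 ± 4.30 to 3.76 ± 3.91. SDs over cells exceeded each of these differences, as values within a group were split between 0 and high FPKM.

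The difference was much smaller once cells were weighted by genes detected. With cells weighted to the same distribution of genes detected (bins of 500 genes), the median was -0.18 for replication and -0.33 for mitotic genes, beside 0.01 over all genes. Then 21 of the 22 mitotic genes were still lower in KO, Racgap1 being the exception at 0.69, but none by at least 1. Of all 35 members, 32 were lower and 4 by at least 1 (Hmgb2 -1.63, Mcm6 -1.34, Tyms -1.13 and Stmn1 -1.06), where 3.44% of all genes were. The share of WT CD8 cells with at least 10 mitotic genes became 7.29% with these weights. That of KO CD8 cells stayed within its interval of 1.49 to 13.3%, which also holds 7.29%. The interval is that of the unweighted KO share. Bins with cells of only 1 group had weight 0. The most genes in a KO CD8 cell were 5451, so WT CD8 cells in higher bins, up to 6363 genes, did not count. The weights thus cannot tell whether the WT and KO shares differ among the cells with the most genes. The cells that carry the mitotic genes are themselves those with the most genes, and what part of the difference belongs to genes detected was not tested.

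**Figure D4:**
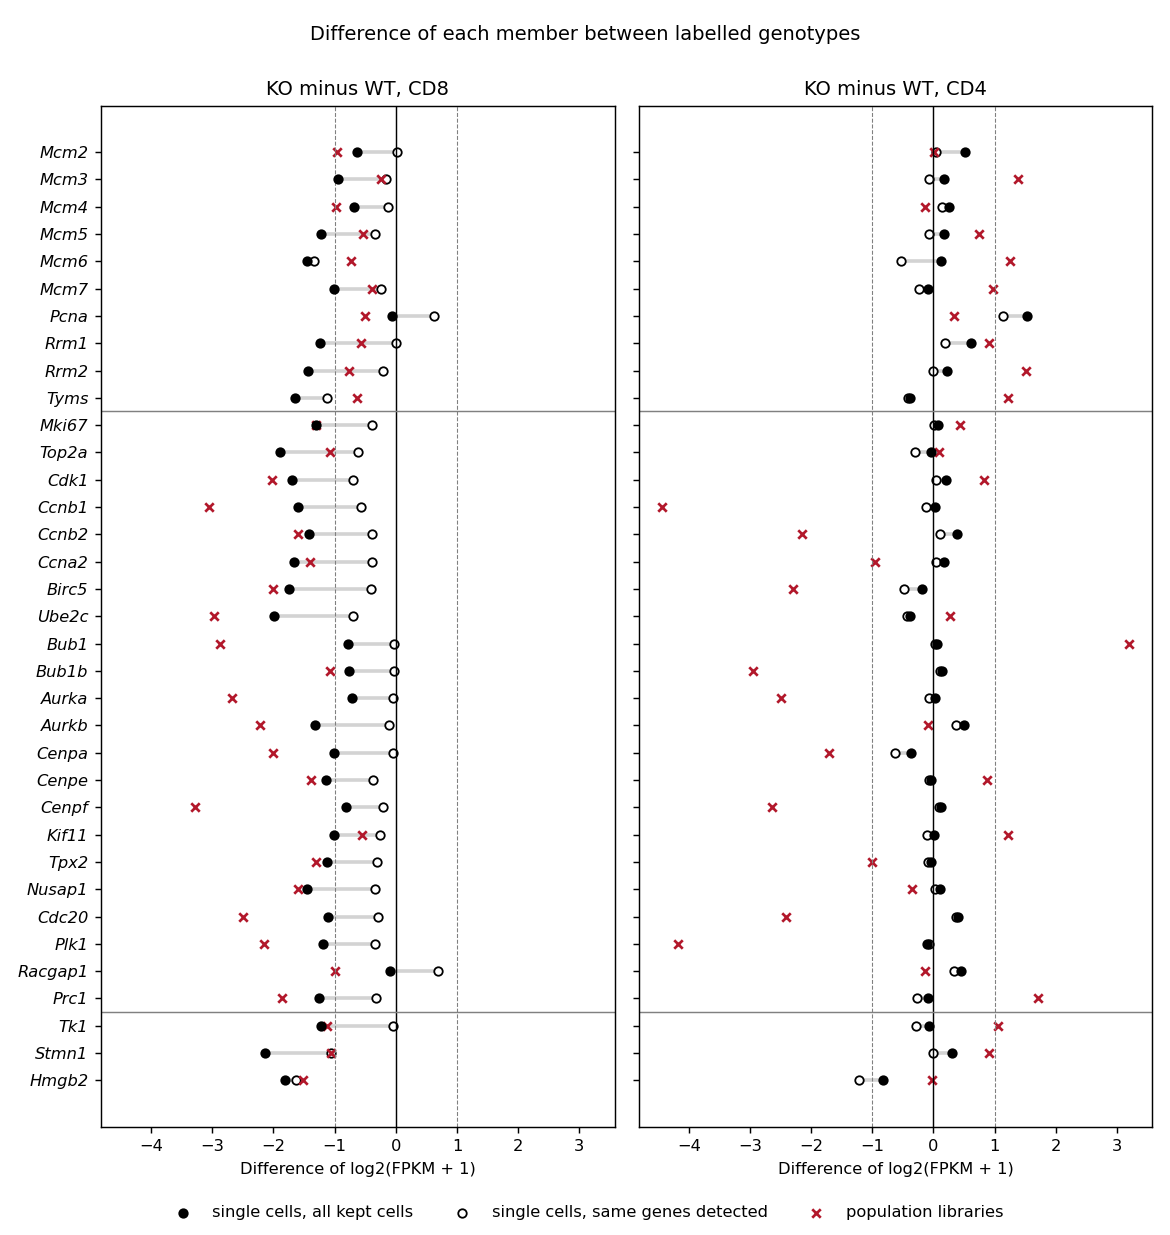
Difference of log2(FPKM + 1), KO minus WT, for each of the 35 members in CD8 (left) and CD4 (right): filled circles for means over all kept single cells, open circles for cells weighted to the same genes detected, crosses for the population libraries. All filled circles of the CD8 panel lie below 0 and 26 at or below -1, while in the CD4 panel Pcna alone lies beyond 1.

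Other genes of these pathways went the same way in CD8 cells, over all kept cells and without weights for genes detected. Of all genes, 4.16% were lower by at least 1. Values with the same genes detected are not given for these lists. Of 41 further replication genes 39 were lower in KO (median -0.77, 8 by at least 1), with the largest differences for Dut at -2.15 and Lig1 at -2.08, a dUTPase and a DNA ligase, and the opposite for Slbp at 0.88 and Cdt1 at 0.78. Of 58 further mitotic genes 55 were lower (median -0.81, 15 by at least 1), led by Hmgn2 at -2.50 and Cks1b at -1.61. In that list H2afz and Tuba1b, a histone variant and a tubulin also present outside division, were higher by 1.45 and 1.34, where 6.66% of all genes were higher by at least 1. Of 18 genes for cyclins D and E, their kinases and E2F factors, 15 were lower (median -0.40), none by at least 1, while Ccnd2 and Ccnd3 were higher by 1.63 and 1.54. Of 22 inhibitors and quiescence genes 13 were higher and 8 lower (median 0.02), with Btg1 at 2.30 and Btg2 at 2.27, both antiproliferative genes, and Rbl1 at -1.20 and E2f4 at -1.13.

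For CD4 cells labelled KO against WT, the members showed no common direction. The median difference was 0.20 for replication genes and 0.04 for mitotic genes, beside 0.16 over all genes, with 8 of 10 and 14 of 22 higher. Pcna alone was higher by at least 1, where 7.91% of all genes were: its mean log2 was 2.58 ± 3.62 (SD over 79 WT CD4 cells) and 4.11 ± 4.10 (SD over 78 KO CD4 cells), a difference of 1.53. None was lower by at least 1, beside 0.353% of all genes, and the lowest was Hmgb2 at -0.82. With the same genes detected, the medians were -0.04 and -0.03, Pcna stayed at 1.14 and Hmgb2 was at -1.22. Whether the CD8 and CD4 differences differ was not tested, with 1 sample in each group.

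Of 41 further replication genes 34 were higher in KO CD4 cells (median 0.21), and of 58 further mitotic genes 44 (median 0.09), with H2afz at 2.42 and Tuba1b at 1.20. Among cyclins D and E, their kinases and E2F factors, Cdk6 and Ccnd3 were higher by 1.87 and 1.30, and among inhibitors and quiescence genes Gadd45b by 2.30 and Rbl2 by 1.84. The largest differences among further replication genes were 0.88 for Fen1, a flap endonuclease, and 0.81 for Tipin, a fork protection factor.

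Between cell types, WT CD8 cells had higher means than WT CD4 cells for all 35 members, 32 of them by at least 1, where 15.3% of all genes were. The median was 1.52 for replication and 1.51 for mitotic genes, beside 0.33 over all genes, with Stmn1 at 2.50, Mcm6 at 2.34 and Rrm1 at 2.07, and with Cenpa lowest at 0.51. With the same genes detected, 30 members were higher (median 0.39), and Racgap1 alone by at least 1 (1.14), beside 4.3% of all genes. In cells labelled KO, 29 of 35 members were higher in CD8 (medians 0.17 and 0.15), and Racgap1 alone by at least 1 (1.48), beside 8.09% of all genes. Racgap1 was thus higher in CD8 cells within both genotypes, with means of 2.55 and 2.45 in CD8 and 0.53 and 0.98 in CD4 cells.

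The population libraries gave a second reading of each group, with 1 library each and no spread. All 35 members were highest in the WT CD8 library. In the order WT CD8, KO CD8 and then the WT and KO libraries of CD4 cells, Mki67 stood at 49.3, 19.3, 14.4 and 19.7 FPKM, Top2a at 253.2, 119.6, 23.6 and 25.2, Ccnb1 at 291.8, 34.2, 93.05 and 3.34, and Mcm6 at 912, 548, 186.5 and 447. In such a library fewer dividing cells and less RNA per cell cannot be told apart.

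Between the CD8 population libraries, all 35 members were lower in KO and 23 by at least 1, where 10.7% of all genes were. Here the classes separated: the median was -1.93 for mitotic genes (20 of 22 at least 1 lower) and -0.60 for replication genes (0 of 10). Cenpf at -3.29, Ccnb1 at -3.06 and Ube2c at -2.97 were furthest, and Mcm3 at -0.25 was nearest to 0. In single cells the medians of the classes had been nearly equal for means of log2 values, which is not the measure of a population library. From log2 of mean FPKM, single CD8 cells gave -1.90 (Rrm1) to -0.59 (Pcna) for replication genes. For mitotic genes they gave -4.10 (Ccnb1) to -0.70 (Kif11), with the median further from 0 than that of the replication genes. The WT CD8 library held melanoma RNA, and all 9 melanoma markers were different by a median of -7.84 (Pmel log2 12.96 in WT and 3.42 in KO), while all 4 class II genes were higher in KO by a median of 7.29 (H2-Aa log2 5.36 and 12.84). B16F10 cells divide, and their part in the members' values of this library was not tested. In kept single WT CD8 cells the summed level of the 9 melanoma markers had a median of 11.5 FPKM and reached 801, in 1 of the 14 cells with at least 10 mitotic genes. Tyr alone was above 0 in all 14 of these cells (median 7.88 FPKM) and in 52 of the 53 others (median 8.26). Each other marker had a median of 0 in both, so the typical summed level was mostly Tyr. Tyr was likewise above 0 in 67 of 70 KO CD8 cells with under 10 mitotic genes (median 8.45).

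Between the CD4 population libraries the classes went opposite ways. Of the replication genes 9 of 10 were higher in KO (median 0.94), and of all members 8 were higher by at least 1, where 9.71% of all genes were, among them Rrm2 at 1.51, Mcm3 at 1.38, Mcm6 at 1.26 and Tyms at 1.21. Of the mitotic genes 14 of 22 were lower (median -0.65) and 9 by at least 1, where 14.3% of all genes were, with Ccnb1 at -4.44, Plk1 at -4.18 and Bub1b at -2.95, whereas Bub1 was higher by 3.20 and Prc1 by 1.71. Relatives such as Bub1 (0.34 FPKM in WT, 11.31 in KO) and Bub1b (28.37 and 2.81) differed in sign, each near the floor in 1 library. Their single-cell differences were 0.05 and 0.15 for means of log2 values, and 0.58 and 1.39 from log2 of mean FPKM. Both libraries held markers of other cells. Macrophage and monocyte markers summed to 1388.71 FPKM in WT and 3679.92 in KO, and melanoma markers to 117.67 and 39.54. Class II genes summed to 7480.59 and 5193.05. The part of such cells in these differences was not tested. Between cell types, all 35 members were higher in CD8 by at least 1 in the WT libraries, where 14.8% of all genes were, and 20 of 35 in the KO libraries, where 13.2% were.

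Members were detected together most clearly in WT CD8 cells. Across its 67 cells the median Spearman rho was 0.64 over the 45 pairs of replication genes, 0.60 over pairs of mitotic genes and 0.45 over mixed pairs, highest for Cdk1 with Aurkb at 0.83. In KO CD8 cells (74) the medians were 0.23, 0.37 and 0.25, in KO CD4 cells (78) 0.29, 0.23 and 0.21, and in WT CD4 cells (79) 0.15, -0.01 and 0.08, the CD4 groups having 210 pairs of mitotic genes since Bub1b in WT and Plk1 in KO were at 0 in all cells. Cells of a group share their sample and differ in depth and genes detected, so these values are a description. Pairs within a class had the higher medians in WT CD8 cells, where Tyms was least like its class, at a median of 0.46 with the other replication genes.

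T cell state genes were read in the cells with at least 10 mitotic genes and in their whole groups. All 14 such WT CD8 cells had Pdcd1, Havcr2 and Gzmb above 0, which encode PD-1, TIM-3 and granzyme B, and none had Tcf7, a factor of stem-like cells, while Il7r was found in 2. Over all 67 WT CD8 cells, Pdcd1 was above 0 in 41, Havcr2 and Gzmb in 38 each, Il7r in 17 and Tcf7 in 16. Of only 4 such KO CD8 cells, Pdcd1 and Havcr2 were found in 1 each, Gzmb in 3, Tcf7 in 1 and Il7r in 2, beside 21, 14, 25, 41 and 54 of all 74 KO CD8 cells. Of further inhibitory receptor genes, Ctla4 and Tigit were above 0 in all 14 WT and all 4 KO CD8 cells, and Lag3 in 13 and 1. In the CD8 cells with under 10 mitotic genes, Ctla4, Tigit and Lag3 were found in 23, 41 and 31 of 53 WT cells. The counts were 36, 36 and 20 of 70 KO cells. The 1 WT CD4 and 2 KO CD4 cells all had Foxp3, the regulatory T cell factor, which was above 0 in 30 of 79 and 39 of 78 cells of those groups. In WT CD8 cells those with Pdcd1 also had more genes detected, with medians of 3676 against 2461.5, and the part of this was not tested.

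Genes outside the lists were ranked by the Spearman rho of their level with the number of members above 0 per cell, given genes detected, averaged over the 4 groups of 67 to 79 cells. Of 7191 candidates the highest were Bard1 at 0.28, Slc22a15, Ccdc127, Npy1r, Asf1b, Nap1l1, Sec23ip and Rangap1 at 0.24, and the lowest were Ly6a at -0.22, Ctss, B2m and Shisa5 at -0.26. These values are weak, and cells share their library and depth.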

How the data were processed

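RNA of single T cells and of 1 population library per group was captured on beads, amplified over 21 cycles by Smart-seq2 and tagmented, per the labels' protocols; no molecular identifiers are described. Bowtie, RSEM and the mm10 build were named per the submitters' processing notes, without versions. Which gene annotation was used is not stated in those notes. The deposited values are FPKM, to which the authors applied TMM scaling between libraries per the labels. RSEM shares reads between similar transcripts.

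Samples were grouped by genotype, cell type and library kind in their titles, and 0 of 378 columns stayed unmapped. Differences are of mean log2(FPKM + 1), which understates the change of low genes. The share of all genes at least 1 higher or lower was taken over the 7927 genes above 0 in at least 10% of the 298 kept cells. Reads per cell were estimated from the steps of low FPKM values, with GENCODE M21 transcript lengths. In the median cell 67.6% of low values were no more than 0.1 from a whole read, so depths are approximate and no count test was run. Replicates were not available, so no replicate was left out and the precision between animals is unknown. Scripts were tested on simulated data (Python 3.11.15, numpy 2.4.6, pandas 2.3.3, scipy 1.17.1). Cells sat in separate wells. Doublets were not called, so wells with more than 1 cell may be among those kept.

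Members and gene lists were chosen with earlier results of these data known. Named were all 35 members, the 2 largest differences either way in each pathway list, and outside the lists the 8 genes with the highest and 4 with the lowest mean partial rho, without T cell receptor, immunoglobulin, mitochondrial, predicted, RIKEN and small RNA genes. T cell state genes and markers came from fixed lists, and those named were chosen after their values were seen. Alternatives are given in the closing section.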

Additional observations from a re-analysis of the deposited data

Results flagged for a closer look

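Several median KO minus WT differences had opposite signs in CD8 and CD4 cells. In single cells the median was -1.11 in CD8 and 0.20 in CD4 for the replication genes, and -1.22 and 0.043 for the mitotic genes, beside -0.06 and 0.16 over all genes. In the population libraries it was -0.60 and 0.94 for the replication genes, while the mitotic medians there had the same sign, at -1.93 and -0.65. With 1 sample per group the difference between cell types was not tested, and the CD4 medians of single cells changed sign when cells were weighted to the same genes detected.

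Some members were above 0 FPKM in the 76 single-cell libraries with under 1000 genes, which no comparison used, in more libraries than the 3.95% that a count of 0 allows, taken as 3 counts of 76. These were Tyms in 44.7%, Birc5 in 26.3%, Ube2c in 17.1%, Tpx2 and Prc1 in 9.21% each, and Mcm5 and Kif11 in 5.26% each.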

How the results depend on the processing

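Values that differed from a reported median or count by over 1.5 times or in sign, or that lay outside the interval of a reported share, are given here. No difference of at least 1 changed sign, and the cause of each change below was not tested. Shares with at least 10 mitotic or 8 replication genes, CD8 minus CD4 medians, counts of genes at least 1 lower, and settings without Tyms, Birc5, Ube2c, Tpx2 and Prc1 with at least 4000 genes or without cells with melanoma markers were added after seeing the data. Depth, which limits the shares of cells, is known by estimate only. No paired analysis was possible because each group is 1 sample and no library number in the titles is shared between groups.

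For KO minus WT in CD8 cells, the replication median was -0.64 over every single-cell library, -0.18 with the same genes detected and -0.68 without cells with markers of other cell types. The mitotic median was -0.71 with a pseudocount of 10, -0.33 with the same genes detected and -2.07 from log2 of mean FPKM. Replication genes at least 1 lower numbered 1 with a pseudocount of 10, 1 over every library and 2 with the same genes detected, and mitotic genes 4, 6 and 0. In CD4 cells the replication median was -0.035 with the same genes detected, 0.36 from mean FPKM and 0.12 when each library was rescaled to the same total. The mitotic median was 0.12 in cells with at least 2000 genes, -0.027 with the same genes detected, 0.086 without libraries lacking B2m or Cd3 genes, 0.77 from mean FPKM, -0.0072 so rescaled and 0.018 over members above 0 in 10% of cells. Without cells with at least 3 melanoma markers the CD4 medians were 0.30 and 0.10, and 0.0% of WT CD4 cells had at least 10 mitotic genes. The mitotic median of the CD4 population libraries was -0.39 with a pseudocount of 10.

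For CD8 minus CD4 in WT cells, the replication median was 1.02 with a pseudocount of 10, 0.99 over every library and 0.27 with the same genes detected. The mitotic median was 0.90 with a pseudocount of 10, 0.41 with the same genes detected and 3.76 from mean FPKM. In KO cells the replication median was 0.30 with a pseudocount of 0.1, 0.093 with 10, 0.092 in cells with at least 2000 genes, 0.27 with the same genes detected and -0.16 from mean FPKM. The mitotic median was 0.077 with a pseudocount of 10, 0.037 in cells with at least 2000 genes and 0.97 from mean FPKM.

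Shares of cells follow with CD8 before CD4 and, within each, WT before KO. Above 10 FPKM, at least 3 replication genes were found in 44.8%, 36.5%, 26.6% and 25.6%, mitotic genes in 35.8%, 9.46%, 8.86% and 7.69%, and both in 26.9%, 8.11%, 2.53% and 6.41%. At least 2 replication genes were found in 82.1%, 90.5%, 74.7% and 83.3%, mitotic genes in 86.6%, 72.97%, 75.9% and 71.8%, and both in 73.1%, 64.9%, 62.03% and 61.5%. At least 5 replication genes were found in 34.3%, 18.9%, 13.9% and 16.7%, mitotic genes in 43.3%, 12.2%, 12.7% and 10.3%, and both in 25.4%, 8.11%, 3.80% and 5.13%. Without the 5 genes named above, replication shares were 41.8%, 43.2%, 30.4% and 32.1%, mitotic shares 46.3%, 18.9%, 11.4% and 15.4%, and shares with both in the last 3 groups 10.8%, 3.80% and 8.97%. Thinned to 100000 estimated reads, mitotic shares were 52.8%, 17.8%, 17.4% and 15.6%, shares with both in the last 3 groups 9.59%, 13.04% and 10.4%, and replication shares 38.4% in KO CD8 and 27.3% in KO CD4 cells.

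Above 1 FPKM, mitotic shares were 37.8% in KO CD8 cells and 30.4% and 29.5% in the CD4 groups, and shares with both 18.99% and 20.5% in the CD4 groups. Over every library, replication shares were 42.6% in WT CD8 and 52.2% in KO CD8 cells, and the WT CD8 mitotic share was 50%. With the same genes detected, WT CD8 cells with at least 10 mitotic genes made 7.29% and with at least 8 replication genes 11.6%. In cells with at least 4000 genes, at least 10 mitotic genes were found in 76.5%, 30%, 33.3% and 25.0%.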
